A study of Mus musculus with 8 samples.

Results

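Receptors for the growth factors and cytokines that steer blood cell formation were followed here through a culture of mouse bone marrow cells, as 10 genes chosen by name: Kit, Flt3, Csf1r, Csf2ra, Csf2rb, Csf2rb2, Il3ra, Csf3r, Il6ra and Ifngr1. They are 10 of the 32285 genes in the deposited single-cell count matrix. Whole bone marrow cells from mice were grown for 1 week on irradiated AFT024 cells, a feeder line from mouse embryonic liver, in a long-term culture medium to which hydrocortisone had been added for both groups. In 1 group the medium was the only condition (media control), and in the other it also held deoxycholic acid, a bile acid made by gut bacteria, at 35 µM. Lineage-negative cells, which lack surface markers of mature blood cells, were sorted from both groups before droplet capture with a 10x Genomics 3′ kit. Strain, age and sex of the mice are not stated in the labels. Lithocholic acid, the other bile acid of the design, was not analysed here.

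Growth factor receptors pass signals from outside the cell to the genes that decide survival, division and maturation. Kit, Flt3 and Csf1r are receptor tyrosine kinases that bind stem cell factor, FLT3 ligand and macrophage colony-stimulating factor. The receptors for GM-CSF and interleukin 3 pair a ligand-binding alpha chain (Csf2ra, Il3ra) with a beta chain (Csf2rb; in mice also Csf2rb2, which serves interleukin 3), while Csf3r binds G-CSF, the main growth factor of neutrophils. Il6ra is the ligand-binding chain for interleukin 6, and Ifngr1 that for interferon gamma.

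The labels list 4 samples in each group, but every cell in the matrix carries only its group, so each group was 1 library and no difference below has a replicate check or a test. Levels are counts of captured RNA molecules (UMIs, unique molecular identifiers) scaled to 1000000 UMIs of the cells summed (CPM). The intervals in parentheses are exact 95% intervals (Poisson for levels, Clopper-Pearson for ratios and shares) and cover counting error only. UMIs tag 3′ ends and were not scaled by transcript length, so levels are compared within a gene and not between genes. The media control kept 8479 cells with a median of 18801 UMIs and the deoxycholic acid library 7762 cells with a median of 14418, and 25 cell barcodes occurred in both libraries. Markers of immature neutrophils summed to 34445 CPM in the control library and 35813 in the treated one, those of granulocyte-monocyte progenitors to 10905 and 9062, and those of stem and early progenitor cells to 36.2 and 27.0. The sort on absent lineage markers thus left mostly cells with neutrophil granule RNA. The 4 B cell markers summed to 11.1 and 10.6 CPM and the 7 dendritic cell markers to 9.08 and 10.5. Of these markers only Pax5 (B cells) and Siglech (plasmacytoid dendritic cells) had no UMI.

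Cells were placed along neutrophil formation by 3 genes that are not among the receptors: Elane (neutrophil elastase, of primary granules), Ngp (neutrophilic granule protein, of secondary granules) and Retnlg (of late neutrophils). A gene counted as on at 10 UMIs per 10000. Cells with at least 2 Prss34 UMIs per 10000, a basophil protease, were set apart first. The low stage (all 3 genes under 10) held 537 media control and 467 deoxycholic acid cells, and the Elane stage 1042 and 950. The stage with both Elane and Ngp held 2810 and 2416, the Ngp stage 3431 and 3410, the Retnlg stage 564 and 468, and the Prss34-gated set 95 and 51. These stages are ranges of a continuous measure. Of the 16241 kept cells, 14.3% lay within a factor of 2 of the Elane threshold, 8.39% of the Ngp threshold and 6.44% of the Retnlg threshold. Depth differed between stages, with medians of 26172 and 18585.5 UMIs in the Elane stage and 6468 and 5690 in the Retnlg stage.

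Promoter sequences are shown for Kit, Csf2ra and Csf3r, as examples of opposite courses along the neutrophil stages and of 3 receptor types: Kit was highest early, and Csf2ra and Csf3r late. Each is the 250 bases before the annotated gene start on the gene's own strand, from RefSeq on GRCm38.p6. The capitals mark the letters GAGGAA, a core of the sites bound by PU.1 (encoded by Spi1), a transcription factor of myeloid cells. The Kit window lies at chr5:75574737-75574986 on the plus strand, the Csf2ra window at chr19:61228419-61228668 on the minus strand and the Csf3r window at chr4:126024409-126024658 on the plus strand.
Kit: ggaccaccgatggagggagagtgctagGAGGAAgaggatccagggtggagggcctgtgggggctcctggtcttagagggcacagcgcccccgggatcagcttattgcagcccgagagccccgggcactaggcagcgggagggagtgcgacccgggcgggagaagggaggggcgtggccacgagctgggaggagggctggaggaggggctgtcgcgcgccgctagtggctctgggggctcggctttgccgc
Csf2ra: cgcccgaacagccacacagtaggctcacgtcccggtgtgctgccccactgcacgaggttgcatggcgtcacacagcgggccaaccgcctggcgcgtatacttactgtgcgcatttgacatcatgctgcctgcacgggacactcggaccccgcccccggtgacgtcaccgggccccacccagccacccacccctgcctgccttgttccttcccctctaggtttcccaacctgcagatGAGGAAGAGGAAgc
Csf3r: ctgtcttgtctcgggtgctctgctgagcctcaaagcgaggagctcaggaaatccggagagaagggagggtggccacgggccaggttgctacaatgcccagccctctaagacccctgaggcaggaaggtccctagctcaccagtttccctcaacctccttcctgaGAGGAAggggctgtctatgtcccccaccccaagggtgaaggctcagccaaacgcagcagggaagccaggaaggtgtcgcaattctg
GAGGAA was searched on both strands. The Kit and Csf3r windows held 1 match each, and the Csf2ra window held 2 that lie end to end just before the gene start. Of the 8 receptor genes with a promoter in the table, 5 held a match (the other two were Csf2rb2 and Il6ra), against 23.1% of 27025 promoters of the same length. The letters TTNNGNAA, a C/EBP core, were found in 3 of the 8 (Csf2ra, Il3ra and Il6ra), against 36.9% of all promoters. AGATAA, the core of sites for GATA factors, was in 1 of the 8 (Il6ra; 10.3% of all promoters) and TGANTCA, an AP-1 core, in 0 of the 8 (6.87%). The early and the late genes shown thus both carried the PU.1 letters, and a match describes the letters in the window only.

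**Figure D1:**
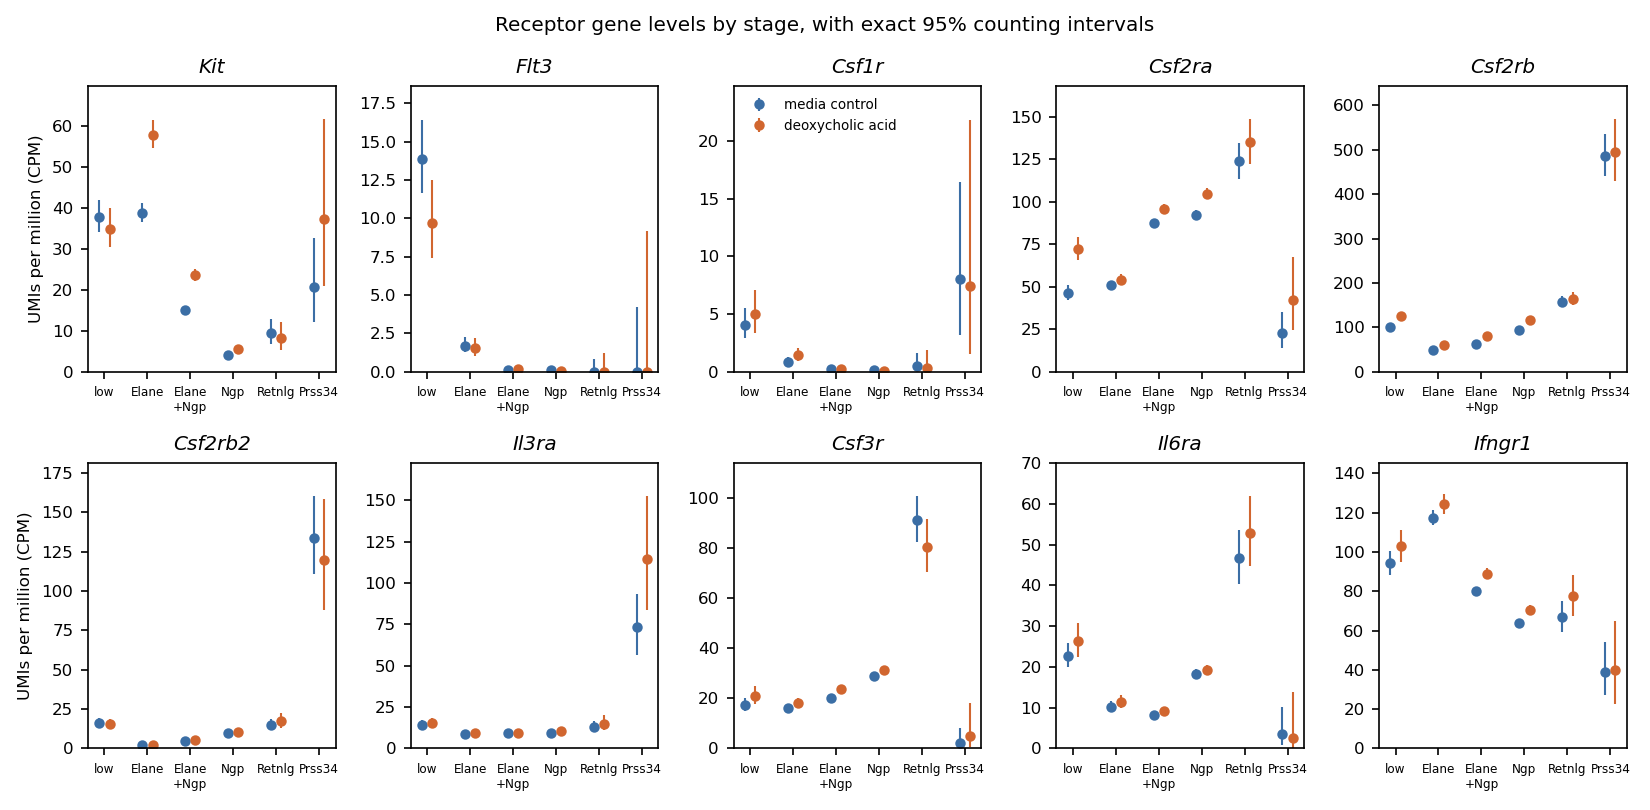
Level of each receptor gene in CPM (vertical axes, starting at 0) in the 6 cell sets (horizontal axes), for the media control (blue) and deoxycholic acid (orange) libraries. Points are summed counts and bars are exact 95% counting intervals. Among the 5 stages, of which the low stage mixes several kinds of cells, Kit was highest in the low and Elane stages. Over all sets Csf3r and Il6ra were highest in the Retnlg stage, and Csf2rb, Csf2rb2 and Il3ra in the Prss34-gated cells.

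Kit, the receptor for stem cell factor that marks early progenitors and mast cells, was highest, among the neutrophil stages, in the low and Elane stages and was higher with deoxycholic acid in both stages that carry Elane. In the media control its level was 37.9 CPM in the low stage, 38.8 in the Elane stage, 14.996 in the Elane and Ngp stage, 4.02 in the Ngp stage, 9.47 in the Retnlg stage and 20.6 in the Prss34-gated cells. With deoxycholic acid the same sets had 34.9, 57.8, 23.6, 5.46, 8.18 and 37.4 CPM. From the Elane to the Ngp stage the level was thus 9.65-fold lower in the media control and 10.6-fold lower with the bile acid. The low and Elane stages did not differ beyond their intervals in the media control, whereas with deoxycholic acid the Elane stage lay above the low stage with no overlap. The Retnlg stage rested on only 41 and 24 UMIs.

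Between the libraries, Kit stood at 16.6 CPM in the media control and 22.6 with the bile acid in all kept cells, a log2 ratio of 0.45 (0.37 to 0.52). The ratio was 0.58 (0.46 to 0.70) in the Elane stage, 0.66 (0.53 to 0.78) in the Elane and Ngp stage and 0.44 (0.18 to 0.71) in the Ngp stage, where the libraries' counting intervals did not overlap. It was -0.12 (-0.37 to 0.13) in the low stage and -0.21 (-1.001 to 0.55) in the Retnlg stage, so the mean over the 5 stages was 0.27, under the 0.3 used here to call a gene. With stage thresholds of 5 in place of 10 the low-stage ratio was -0.41. Thinning every cell to 5000 UMIs gave 0.98 in the Elane and Ngp stage.

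Shares of cells with a Kit UMI depend on depth, so they were taken at 5000 UMIs per cell, leaving out 661 media control and 648 deoxycholic acid cells of lower depth. In the Elane stage 15.6% of media control cells (13.4 to 18.0) and 23.6% of bile acid-treated cells (20.9 to 26.5) had a Kit UMI, and without thinning 49.2% and 54.0% did. In the Elane and Ngp stage the thinned shares were 6.17% and 10.9%, and in the Ngp stage 1.78% and 2.44%. Retnlg-stage cells, late neutrophils in which Kit is usually absent, had shares of 4.05% (2.33 to 6.49) and 3.103% (1.43 to 5.81), from 16 and 9 cells. The Ngp-stage shares lay below these, but with deoxycholic acid the intervals overlapped (1.93 to 3.05 in the Ngp stage). Whether Kit UMIs at such low shares are background was not tested, and the Ngp-stage ratio is not read as a difference in expression. The Elane-stage shares lay above the Retnlg-stage shares in both libraries with no overlap of intervals. In the Elane and Ngp stage the deoxycholic acid share did so too, while the media control share (5.30 to 7.13) overlapped.

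Within the Elane stage, Kit was higher where Elane was higher. At 10 to 30, 30 to 60 and over 60 Elane UMIs per 10000 (limits chosen after values were seen), Kit was at 25.4, 38.5 and 47.7 CPM in the media control. With deoxycholic acid it was at 40.5, 52.5 and 74.0 CPM, above the media control in each range, with no overlap of the intervals within a range. The difference between the libraries was therefore present within each of these wide Elane ranges, inside which Elane itself was not matched. Other markers of granulocyte-monocyte progenitors also differed in the Elane stage. Mpo was at 1733 CPM in the control library and 2126 in the treated one, and Ctsg at 5514 and 4004. The part of such differences between the cells in the Kit ratio was not tested. In the Ngp stage all ranges of Ngp were low in Kit, between 3.24 and 4.62 CPM in the media control and between 4.92 and 6.24 with the bile acid.

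**Figure D2:**
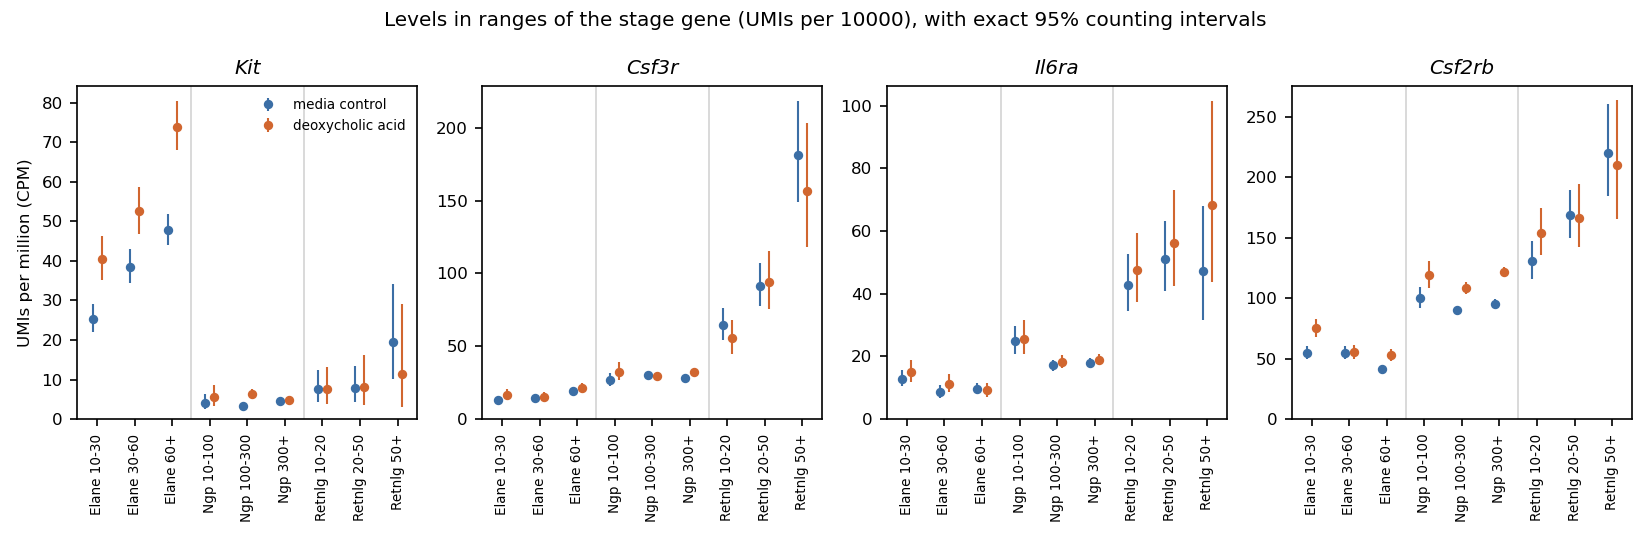
Kit, Csf3r, Il6ra and Csf2rb levels in CPM (vertical axes, starting at 0) in 3 ranges of the stage gene's UMIs per 10000 within the Elane, Ngp and Retnlg stages (horizontal axes), with exact 95% counting intervals. Kit with deoxycholic acid (orange) lies above the media control (blue) in each Elane range, and Csf3r climbs with Retnlg in both libraries.

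Cells were also clustered on gene expression with the 10 receptors left out, which gave 16 clusters of both libraries together. Kit peaked in cluster 15 (Ctla2a, Hbb-bt, Pf4, Car1 and Cd34 among its leading genes; 88 media control and 56 deoxycholic acid cells) at 154 CPM (140.1 to 169.7). It followed at 48.0 and 41.8 CPM in clusters 6 and 3, both led by Mpo (myeloperoxidase), and at 44.3 in cluster 12 (Prg2, Prss34, Cpa3 and Mcpt8). In all 12 clusters with at least 50 Kit UMIs the gene was higher with deoxycholic acid, with log2 ratios from 0.05 (cluster 1) to 1.36 (cluster 2) and a median of 0.57. The intervals of clusters 0, 1, 9 and 15 held 0, and cluster 15 was at 0.24 (-0.05 to 0.54). Of the larger counts, cluster 3 stood at 34.2 CPM in the media control and 54.5 with the bile acid (0.67, 0.51 to 0.84), and cluster 6 at 40.0 and 60.9 (0.61, 0.45 to 0.76). Clusters 0, 1, 2 and 9, at 2.05 to 8.81 CPM, lay below the Kit level of the Retnlg stage in the media control. Cluster 5, with 31 and 18 UMIs, was at -0.43, and cluster 10, with 12 and 6 UMIs, at -0.54. In cluster 12 Kit was at 30.2 CPM in the media control and 75.3 with the bile acid, from 37 and 42 UMIs.

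Cluster 7, whose first leading genes were Bnip3 and Ankrd37, both known to respond to low oxygen, held 554 media control and 693 deoxycholic acid cells and had Kit at 16.9 and 38.5 CPM (1.19, 0.93 to 1.46). Without this cluster, an alternative chosen after seeing the data, the Kit ratio was 0.35 in all kept cells, 0.51 in the Elane stage and 0.55 in the Elane and Ngp stage.

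**Figure D3:**
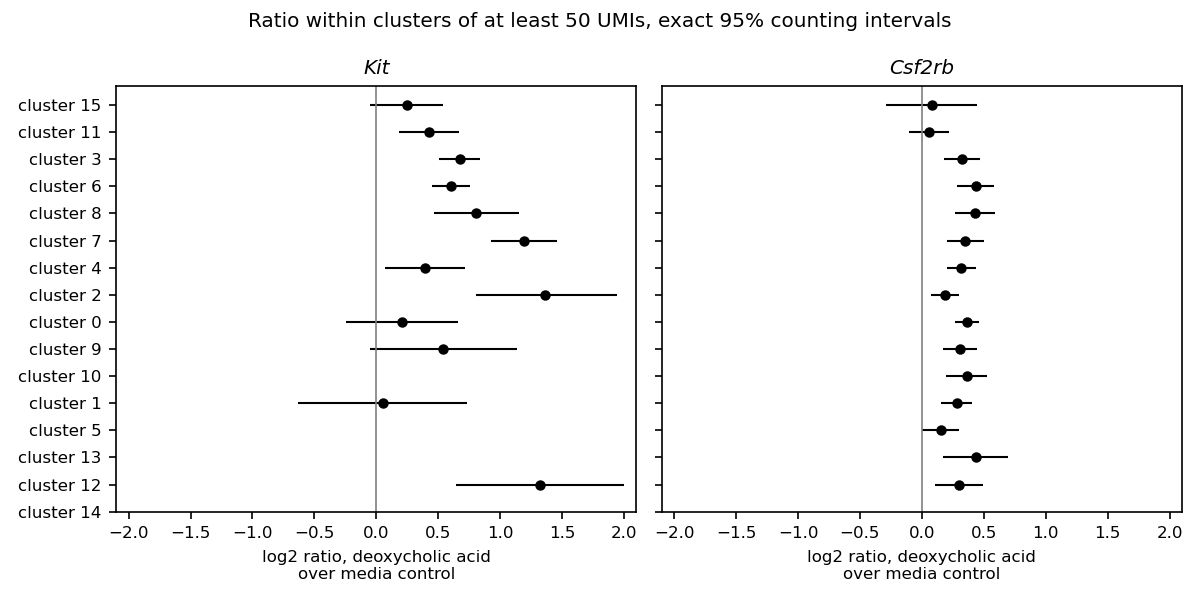
Log2 ratio of deoxycholic acid over media control (horizontal axes, with exact 95% counting intervals) for Kit and Csf2rb in each cluster with at least 50 UMIs of the gene (vertical axis). The Kit points run from 0.05 to 1.36 in 12 clusters and the Csf2rb points from 0.06 to 0.44 in 15 clusters, all to the right of 0.

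Flt3, the FLT3 ligand receptor of early multipotent and dendritic progenitors, was found mainly in the low stage, with 13.9 CPM in the media control and 9.69 with the bile acid (136 and 60 UMIs). It was at 1.71 and 1.53 CPM in the Elane stage, 0.148 and 0.154 in the Elane and Ngp stage, and had no UMI in the Retnlg stage, where 3 counts would be 0.693 and 1.02 CPM. In all kept cells it had 201 and 98 UMIs (1.21 and 0.832 CPM), below the filter of 5 CPM in the higher library. From the low to the Elane stage Flt3 was 8.13-fold lower in the media control and 6.33-fold lower with the bile acid.

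In the low stage Flt3 was lower with deoxycholic acid, at a log2 ratio of -0.52 (-0.98 to -0.07). The clusters that make up the low stage differed between the libraries. Cluster 11 (Hpgd, Fabp5 and Ly6a) gave 25.1% of the low-stage cells in the media control and 17.6% in the treated library, cluster 15 gave 13.04% and 8.99%, and cluster 13 (Vcan, S100a4 and Cd74) gave 16.4% and 22.1%. Cluster 14, with stromal fibroblast markers raised, gave 14.3% and 11.99%. Cluster 5 (Mmp9, Mmp8 and Retnlg) gave 10.4% and 9.64%, and cluster 12 gave 7.08% and 6.64%. The 7 stem and early progenitor markers summed to 258 and 176 CPM in this stage, the 7 megakaryocyte and erythroid markers to 195 and 124, the 7 dendritic cell markers to 20.6 and 70.9, and the 6 macrophage markers to 41.5 and 67.2. Siglech was at 0 in both libraries, and 2 of the macrophage markers were at 0 in the media control. Inside cluster 15, Flt3 was at 27.4 CPM in the media control and 29.6 with the bile acid (0.11, -0.63 to 0.82). Inside cluster 11 it was at 7.30 and 4.59 CPM (-0.67, -1.27 to -0.11). Fewer cells of a type and less RNA per cell cannot be told apart in the stage sums, and the part of the marker shift in the Flt3 ratio was not tested.

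Csf1r, the receptor that directs monocyte and macrophage formation, was scarce, with 101 UMIs in the media control and 77 with the bile acid (0.609 and 0.654 CPM), and did not pass the filter in all kept cells. It was at 4.08 and 5.005 CPM in the low stage and at 0.889 and 1.42 in the Elane stage, with intervals that overlapped between the libraries, and lower in each later neutrophil stage. The Prss34-gated cells had 8.001 and 7.47 CPM from 7 and 3 UMIs. The highest cluster was 13, whose leading genes include the monocyte gene Vcan, at 12.1 and 9.51 CPM from 23 and 12 UMIs. At this depth no difference between the libraries was detectable for Csf1r.

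Of the GM-CSF receptor, the alpha chain gene Csf2ra went up in CPM from the Elane to the Retnlg stage in both libraries. CPM is a share of all UMIs, and cells of the Retnlg stage had fewer UMIs. Without thinning, 64.3% of Elane-stage and 53.9% of Retnlg-stage cells in the media control had a Csf2ra UMI. With deoxycholic acid 56% and 51.3% did. In the media control it was at 46.3 CPM in the low stage, 51.0 in the Elane stage, 87.8 in the Elane and Ngp stage, 92.4 in the Ngp stage and 124 in the Retnlg stage. With deoxycholic acid it was at 72.2, 54.3, 95.6, 105 and 135 CPM, so that the low stage lay above the Elane stage in this library. The Prss34-gated cells had the lowest level in both libraries, at 22.9 and 42.3 CPM from 20 and 17 UMIs, and with deoxycholic acid its interval overlapped that of the Elane stage. In the Retnlg stage the level was 2.43-fold that of the Elane stage in the media control and 2.49-fold with the bile acid.

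With deoxycholic acid Csf2ra was slightly higher in all kept cells, at 91.9 CPM against 81.3 (log2 ratio 0.18, 0.14 to 0.21). The ratio was 0.12 in the Elane and Ngp stage and 0.18 in the Ngp stage, both with intervals above 0. The intervals crossed 0 in the Elane and Retnlg stages, with ratios of 0.09 and 0.13. The low stage stood apart at 0.64 (0.45 to 0.83). Among the clusters of that stage, the ratio was 0.49 (0.16 to 0.82) in cluster 13, 0.21 (0.02 to 0.39) in cluster 11 and -0.18 (-1.01 to 0.60) in cluster 15. Csf2ra was lower in cluster 15 (24.8 CPM) than in cluster 13 (99.0 CPM), and the shares of these clusters in the low stage moved between the libraries as given for Flt3. Their part in the low-stage ratio was not tested.

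Csf2rb is the beta chain shared by the GM-CSF, interleukin 3 and interleukin 5 receptors. It was lower in the Elane stage than in the mixed low stage, and in CPM it climbed over the later stages. Its media control levels were 100.3 CPM in the low stage, 48.9 in the Elane stage, 61.6 in the Elane and Ngp stage, 93.5 in the Ngp stage, 158 in the Retnlg stage and 486 in the Prss34-gated cells. With deoxycholic acid they were 125, 59.8, 79.5, 116, 165 and 496 CPM. The Prss34-gated level was the highest in both libraries, and its intervals did not meet those of any other set. At 5000 UMIs, 83.6% of these cells in the media control and 74.2% with the bile acid had a Csf2rb UMI, against 20.6% and 23.3% in the Elane stage.

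The ratio between the libraries for Csf2rb was steady over the stages that hold most cells. It was 0.32 (0.28 to 0.35) in all kept cells, from 77.1 CPM in the media control and 96.1 with the bile acid. By stage it was 0.31 in the low, 0.29 in the Elane, 0.37 in the Elane and Ngp and 0.32 in the Ngp stage, each with an interval above 0. In the Retnlg stage it was 0.06 (-0.11 to 0.23) and in the Prss34-gated cells 0.03 (-0.22 to 0.28). It was above 0 in 15 of 15 clusters with at least 50 UMIs, from 0.06 in cluster 11 to 0.44 in cluster 13. Its call rested on a narrow margin over 0.3, since other scalings and weightings of the same cells gave 0.22 to 0.27. When cells were thinned to 5000 UMIs the low-stage ratio was 0.05 and that of the Retnlg stage -0.24.

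Csf2rb2, the mouse beta chain for interleukin 3, followed Csf2rb at lower counts, with 16.2 CPM in the low stage, 2.17 in the Elane stage, 4.39 in the Elane and Ngp stage, 9.69 in the Ngp stage, 14.8 in the Retnlg stage and 134 in the Prss34-gated cells of the media control. With deoxycholic acid the levels were 15.2, 2.21, 5.16, 10.4, 17.0 and 119.5 CPM. Over 16 clusters in both libraries (32 points) the levels of the beta chain genes had a Pearson r of 0.91 on a log2(CPM + 1) scale, given as a description. The genes are close copies: their longest coding transcripts were 90.9% identical over 4679 aligned bases. Of the 50-base windows of Csf2rb, 18.4% were found in Csf2rb2. In the last 500 bases, the end that a 3′ kit reads, identity was 83.1% and 0 of 451 windows were shared. Reads from the shared part could still have been split or dropped in counting, so the separate levels are uncertain. Csf2rb2 did not differ between the libraries beyond counting error (0.08, -0.05 to 0.20), and after thinning it was at -0.22.

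Il3ra, the interleukin 3 alpha chain, stayed within a narrow span along the neutrophil stages, between 8.64 and 14.3 CPM in the media control and between 8.96 and 15.01 with the bile acid. The Prss34-gated cells stood far above, at 73.1 CPM in the media control and 115 with the bile acid (64 and 46 UMIs), so that Il3ra, Csf2rb and Csf2rb2 all peaked there. Interleukin 3 is a main growth factor of basophils and mast cells. The ratio between the libraries was 0.12 (0.01 to 0.22) in all kept cells but -0.10 after thinning, and 0.25 (0.07 to 0.44) in the Ngp stage but -0.13 after thinning, so its direction changed with thinning. In the Prss34-gated cells it was 0.65 (0.07 to 1.22). That set had 43.2 Prss34 UMIs per 10000 with deoxycholic acid and 61.9 in the media control, and its Ngp level was 35.1 against 12.1 per 10000. The part of these differences in the Il3ra ratio was not tested. In cluster 12, Il3ra was at 72.6 CPM in the media control and 106 with the bile acid (0.54, 0.04 to 1.03).

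Csf3r, the G-CSF receptor, was highest in the Retnlg stage. In the media control it was at 17.3 CPM in the low stage, 16.1 in the Elane stage, 20.2 in the Elane and Ngp stage, 28.7 in the Ngp stage and 91.2 in the Retnlg stage. With deoxycholic acid it was at 21.0, 18.0, 23.8, 31.3 and 80.4 CPM. The Retnlg level was 3.18-fold that of the Ngp stage in the media control and 2.57-fold with the bile acid. Within the Retnlg stage it climbed further with Retnlg itself, at 64.5, 91.3 and 181 CPM in the control library and 55.5, 94.0 and 156 with the bile acid (10 to 20, 20 to 50 and over 50 Retnlg UMIs per 10000). At 5000 UMIs 32.2% and 26.6% of Retnlg-stage cells had a Csf3r UMI, against 8.09% and 9.68% in the Elane stage. In the Prss34-gated cells 0 of 67 cells in the control and 0 of 31 in the treated library had one, and 3 cells would be 4.48% and 9.68%. Without thinning 2.11% and 1.96% of these cells had a Csf3r UMI.

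Csf3r was at 23.9 CPM in the media control and 26.9 with the bile acid in all kept cells, a log2 ratio of 0.17 (0.10 to 0.24). The ratio was 0.24 (0.13 to 0.36) in the Elane and Ngp stage and -0.18 (-0.42 to 0.06) in the Retnlg stage, where it was -0.42 after thinning. Of 13 clusters with at least 50 UMIs it was above 0 in 10 and below in 3, between -0.11 and 0.31. The value in all kept cells was 0.05 as a mean over cells and 0.08 after thinning.

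Il6ra, the interleukin 6 binding chain, had a similar late peak but a different start. Its media control levels were 22.8 CPM in the low stage, 10.2 in the Elane stage, 8.11 in the Elane and Ngp stage, 18.2 in the Ngp stage, 46.6 in the Retnlg stage and 3.43 in the Prss34-gated cells (3 UMIs). With deoxycholic acid the neutrophil stages had 26.3, 11.4, 9.14, 19.2 and 52.8 CPM. The Retnlg level was thus 4.55-fold that of the Elane stage in the media control and 4.62-fold with the bile acid. Across the 32 cluster points Il6ra and Csf3r had a Pearson r of 0.85, the highest of any pair but the beta chains. The ratio between the libraries was 0.16 (0.07 to 0.25) in all kept cells, with an interval crossing 0 in each stage alone.

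Ifngr1, the ligand-binding chain for interferon gamma, went the other way and was highest in the Elane stage. It was at 94.4, 117.5, 80.03, 63.7 and 66.7 CPM from the low to the Retnlg stage in the media control and at 103, 124, 89.0, 70.3 and 77.4 with the bile acid. The Prss34-gated cells had 38.9 and 39.8 CPM. From the Elane to the Retnlg stage the level was 1.76-fold lower in the media control and 1.61-fold lower with the bile acid, short of the 2-fold used to call a stage difference. The highest cluster was 13, at 125 CPM. The ratio between the libraries was 0.12 (0.08 to 0.15) in all kept cells, with ratios from 0.08 to 0.21 in the 5 stages.

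Cluster 14, whose leading genes were Cdkn2a and Cald1 and in which 6 stromal fibroblast markers were raised, held 85 media control and 66 deoxycholic acid cells with a median of 3521 UMIs. Csf1r had 0 UMIs there, as in cluster 9. Cluster 14 had the lowest levels of Csf2ra (18.0 CPM), Csf2rb (13.98), Csf2rb2 (0.999), Kit (0.999) and Ifngr1 (22.0) of the 16 clusters, both libraries summed.

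**Figure D4:**
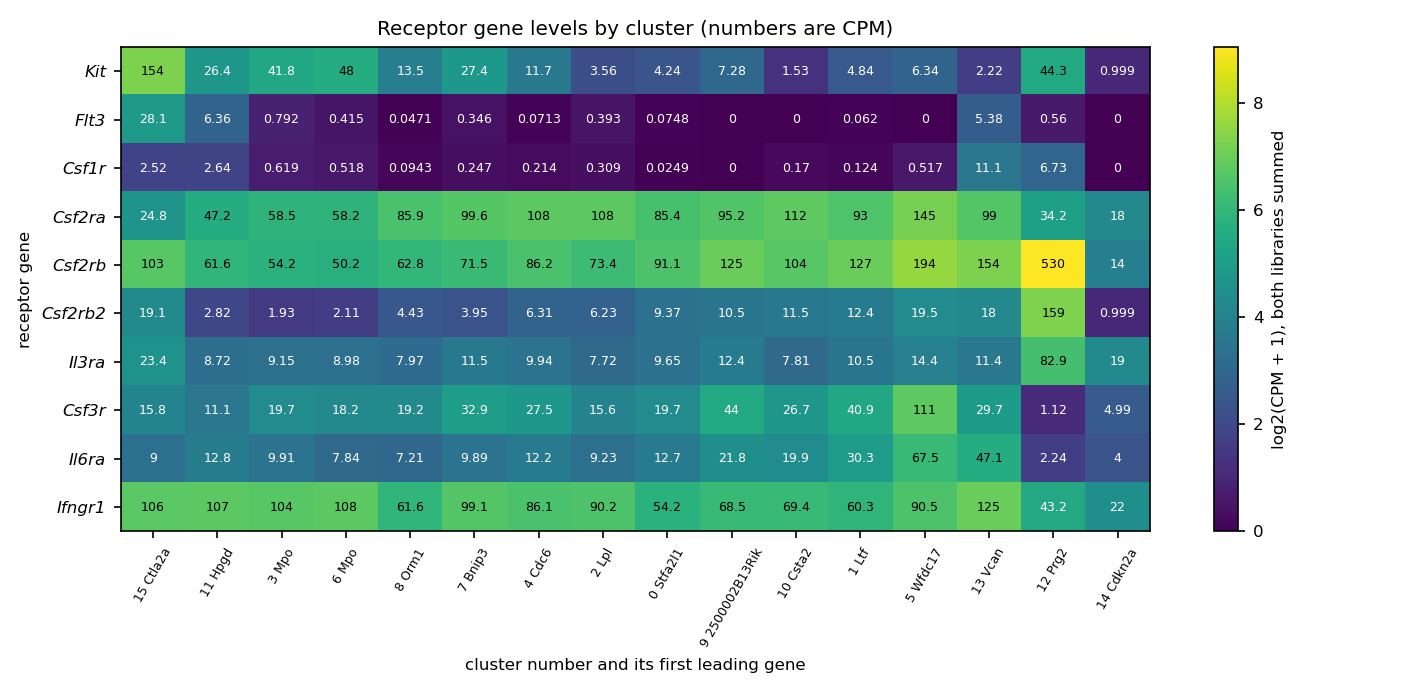
Level of each receptor gene (rows) in the 16 clusters (columns, with number and first leading gene), both libraries summed. The printed numbers are CPM and the colour is log2(CPM + 1); Kit and Flt3 peak in cluster 15 (154 and 28.1), Csf2rb, Csf2rb2 and Il3ra in cluster 12 (530, 159 and 82.9), and Csf3r, Il6ra and Csf2ra in cluster 5 (111, 67.5 and 145).

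Several receptors differed at least 2-fold in CPM between stages, mostly as higher levels late. These levels are shares of all UMIs and not counts per cell, and median UMIs per cell were lower in the Retnlg than in the Elane stage. Of the 8 that passed the filter, 5 were at least 2-fold higher in the Retnlg than in the Elane stage in both libraries (Csf2ra, Csf2rb, Csf2rb2, Csf3r and Il6ra), against 20.4% of 8520 genes. One, Kit, was at least 2-fold lower, at 4.10-fold in the media control and 7.07-fold with the bile acid, against 32.3% of genes. From the low to the Elane stage 4 of 9 were at least 2-fold lower (Csf2rb, Csf2rb2, Flt3 and Il6ra), against 6.17% of genes, and 0 of 9 higher, against 0.897%. That comparison sets a mixture of cell kinds against the Elane stage. From the Ngp to the Retnlg stage only Csf3r and Il6ra were 2-fold higher (5.53% of genes) and 0 of 8 were lower (10.9%). The same rule from the Elane to the Elane and Ngp stage called 1 of 7 lower, Kit (2.63% of genes), and none higher (3.08%). Between the Elane and Ngp stage and the Ngp stage, Csf2rb2 and Il6ra were called higher (5.81%) and Kit lower (9.25%), of 8. Over the whole step from Elane to Ngp stage the only calls were Csf2rb2, higher by 4.47-fold and 4.68-fold (14.8% of genes), and Kit, lower (21.9%). Csf2rb2 (2.17 and 2.21 CPM) and Flt3 (1.71 and 1.53) lay under 5 CPM in the Elane stage. Their calls against it passed the filter only through the other stage, where they were higher. In the media control so did the Kit calls with the Ngp stage and the Csf2rb2 call with the Elane and Ngp stage. The shares of all genes used the same filter.

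Between the libraries, the 8 receptors that passed the filter in all kept cells were all on the higher side with deoxycholic acid, where 59.5% of 8203 genes were. Their median log2 ratio was 0.16, and that of all genes tested was 0.05. Of the 8, only Kit and Csf2rb reached 0.3, against 9.85% of genes, and 0 of 8 reached -0.3, against 8.27%. Thinning to 5000 UMIs gave 6 of 8 above 0 and a median of 0.10, and the share of all genes after thinning is not given. The other differences were small next to the spread of all genes, whose central 95% ran from -0.53 to 0.44, and only Kit lay outside it.

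In the low stage 7 of 10 receptors lay above 0 (52.4% of genes), 2 reached 0.3 (Csf2ra and Csf2rb; 20% of genes) and Flt3 alone reached -0.3 (17.4%). In the Elane stage 7 of 7 lay above 0 (49.1%), only Kit reached 0.3 (10.8%) and 0 reached -0.3 (11.2%). In the Elane and Ngp stage 8 of 8 lay above 0 (60.8%), Kit and Csf2rb reached 0.3 (12.5%) and 0 reached -0.3 (7.63%). The Ngp stage was alike, with 8 of 8 above 0 (65.3%), Kit and Csf2rb past 0.3 (9.98%) and 0 past -0.3 (5.59%). In the Retnlg stage 6 of 8 lay above 0 (56.6%), and 0 reached 0.3 (16.5%) or -0.3 (13.4%). Of 4 receptors that passed in the Prss34-gated cells, 3 lay above 0 (47.9%), Il3ra reached 0.3 (21.6%) and 0 reached -0.3 (23.8%). The Kit value of the Ngp stage is a ratio of levels below those of the Retnlg stage. It passed the filter of 5 CPM only through the deoxycholic acid library, where it was higher (4.02 and 5.46 CPM). The same held for Csf1r in the low stage (4.08 and 5.005 CPM). It also held for Csf2rb2 in the Elane and Ngp stage (4.39 and 5.16 CPM). These values are therefore on the higher side partly through the filter, which the shares of all genes used too.

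**Figure D5:**
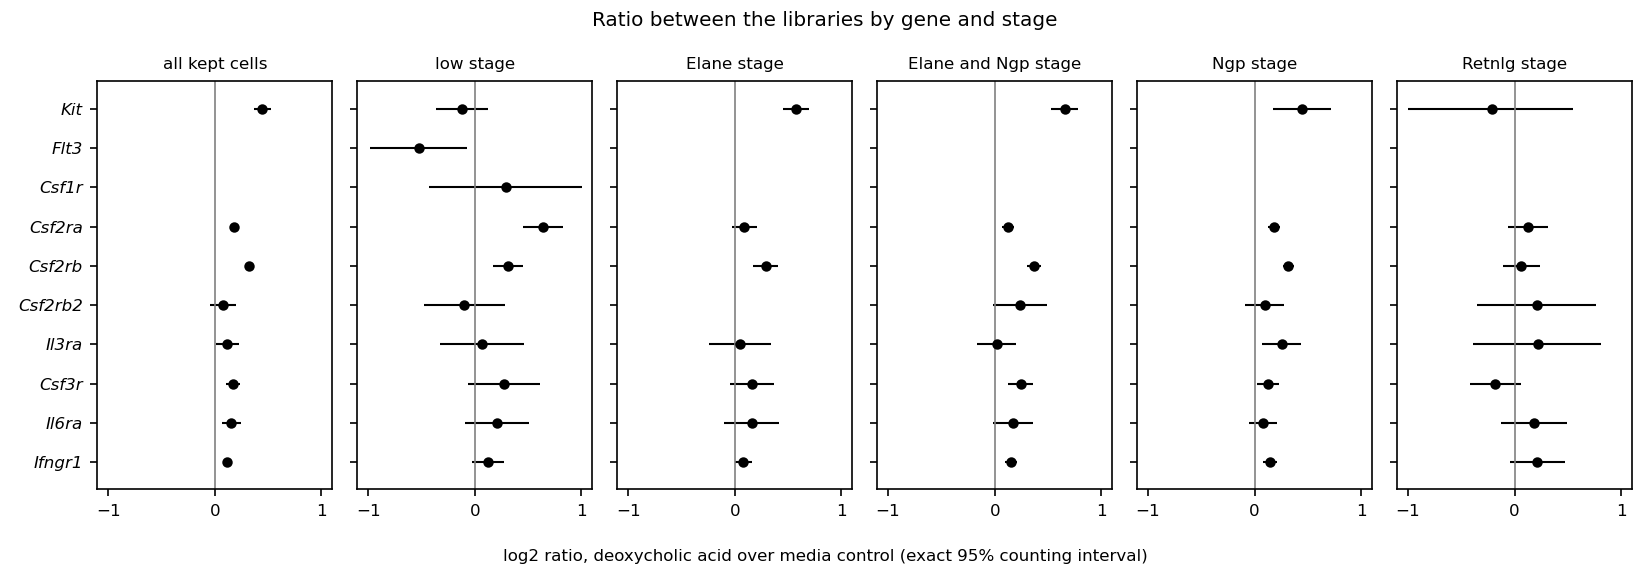
Log2 ratio of deoxycholic acid over media control (horizontal axes, dots with exact 95% counting intervals) for each receptor gene (vertical axis) in all kept cells and in the 5 neutrophil stages; genes under the filter have no dot. Kit lies right of 0.4 in all kept cells and in the Elane, Elane and Ngp, and Ngp stages, and Csf2ra and Flt3 lie apart from it, on opposite sides of 0, in the low stage.

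Receptors work in pairs and cells can carry several, so chains were counted in the same cells at 5000 UMIs. Csf2ra and Csf2rb, the chains of 1 receptor, were both found in 10.7% of media control cells (10.0 to 11.4) and 13.5% of bile acid-treated cells (12.7 to 14.3). The products of the single shares were 10.3% and 13.2%, which lie inside these intervals. Il3ra and Csf2rb gave 1.80% of media control cells (1.52 to 2.12) against 1.71%, and 2.22% of bile acid-treated cells (1.89 to 2.59) against 1.85%. Csf3r and Csf2rb gave 4.55% (4.10 to 5.04) against 3.79%, and 5.64% (5.11 to 6.20) against 4.74%. For both pairs the product lay inside the interval in each of the 5 stages alone. Kit and Csf2ra gave shares below the product, with 1.46% of media control cells (1.20 to 1.75) against 1.91%, and 2.07% of bile acid-treated cells (1.75 to 2.42) against 3.05%. Within the Elane stage the values were 2.53% (1.66 to 3.69) against 3.36%, and 3.40% (2.34 to 4.77) against 5.18%, so that only the deoxycholic acid interval lay below the product. The low stage was alike in this. In the Elane and Ngp stage the values were 1.81% (1.35 to 2.39) against 2.15%, and 3.31% (2.63 to 4.10) against 4.07%. There and in the later stages the product lay inside the interval in both libraries. Il6ra and Csf3r gave shares above the product, with 1.41% of media control cells (1.16 to 1.69) against 0.873%, and 1.41% of bile acid-treated cells (1.15 to 1.71) against 0.981%. Within the Retnlg stage the shares of both were 8.10% and 5.86% against 6.67% and 5.04%, inside their intervals. Within the Ngp stage they lay above the product, at 1.69% (1.27 to 2.20) against 1.17% in the media control. With deoxycholic acid they were 1.90% (1.45 to 2.44) against 1.39%. In the low stage only the deoxycholic acid interval lay above the product. The Elane stage and the Elane and Ngp stage had the product inside their intervals. At this depth a missing partner does not show that it was absent.

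The genes whose levels ran closest to each receptor over the 32 cluster points, among 4670 genes, are given as descriptions, since points of 1 library share depth and preparation. Csf3r ran closest to Tnfrsf1a (a TNF receptor; r = 0.91), Mtus1 and Sla, and Il6ra to Mmp8 (neutrophil collagenase; 0.89), Skap2 and Svil. Csf2ra ran closest to A930007I19Rik (0.94), Pgd (an enzyme of the pentose phosphate pathway) and App, and Csf2rb to Klf6 (0.95), Vps13c and Rgs2. Csf2rb2 had Rgs2 (0.94), Btg2 and Ccl3 nearest, and Il3ra had Trrap (0.91), Prkacb and Prg2 (a granule protein of eosinophils and basophils). Kit ran closest to Snx14 (0.90), Ptprcap and Slc28a2, and Ifngr1 to Ccnk (0.87), Tnfrsf13b and Orai1.

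Downstream of the receptors, 25 genes of kinases, adaptors, phosphatases and STATs all passed the filter, and 21 were on the higher side with deoxycholic acid (59.5% of all genes) and 4 on the lower. Their median log2 ratio was 0.23 against 0.05 for all genes, and 7 reached 0.3 (9.85% of all genes) and 0 reached -0.3 (8.27%). Lyn, a Src-family kinase that acts below these receptors, was at 89.3 CPM in the media control and 127 with the bile acid (0.51, 0.48 to 0.55). It was higher in each of the 5 stages, for example at 55.6 and 84.6 CPM in the Elane stage and 150 and 181 in the Retnlg stage, and lower in the Prss34-gated cells (96.0 and 77.2). Ptpn6, the phosphatase SHP-1 that dampens Kit and cytokine receptor signals, was at 132 and 169 CPM (0.36), and Ptprc (CD45) at 151 and 178 (0.23). Grb2, an adaptor that links receptors to Ras, was at 103 and 97.4 (-0.08), and Stat5a was the lowest at 7.15 and 6.69 (-0.10).

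Genes that these receptors induce, or that curb their signals, had a median log2 ratio of 0.09 among those that passed the filter. Of 18, 12 passed the filter, 10 on the higher side (59.5% of all genes) and 2 on the lower. None reached 0.3 (9.85% of all genes) and 1 reached -0.3 (8.27%). Under the filter, Spry2 (4.12 and 2.45 CPM), Socs1 (2.49 and 1.70) and Socs3 (1.75 and 1.39) were lower with deoxycholic acid. Their log2 ratios were -0.75 (-0.95 to -0.55), -0.55 (-0.80 to -0.30) and -0.33 (-0.61 to -0.05). The intervals of Pim2, Spry1 and Spred1, also under the filter, held 0. Mcl1, a survival gene downstream of cytokine receptors, was at 159 CPM in the media control and 172 with the bile acid (0.11), and the cyclin genes Ccnd3 and Ccnd2 were at 153 and 172 (0.16) and at 71.1 and 74.7 (0.07). Pim1, a STAT5-induced kinase, was at 105 in both. Bcl2l1, which encodes BCL-XL, had the highest ratio (12.4 and 14.4 CPM, 0.21) and Myc the lowest (19.96 and 16.04, -0.31).

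Interferon gamma response genes were measured beside Ifngr1. Of 16, 7 passed the filter, 5 on the higher side (59.5% of all genes) and 2 on the lower, with a median of 0.08. Of the 7, 1 reached 0.3 (9.85% of all genes) and 2 reached -0.3 (8.27%), with 3 intervals above 0 and 2 below. The chemokine gene Cxcl10 was at 14.7 CPM in the media control and 17.2 with the bile acid (0.23). The immunoproteasome subunit genes Psmb8 and Psmb9 were lower, at 149 and 121 (-0.31) and at 34.9 and 18.5 (-0.91). Psmb9 was lower in each of the 6 cell sets. Ifng itself had no UMI in either library.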

How the data were processed

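The deposited matrix holds counts (whole UMIs per gene and cell) that the authors made from 10x Genomics 3′ v3.1 libraries with Cell Ranger 6.0, per the submitters' processing notes. Per the labels, 8000 cells per sample were targeted and the data came from 2 experimental replicates. Genome build, annotation and cell filter were not given in the sources used here. This matrix held 17866 cells (9346 media control, 8520 deoxycholic acid) with medians of 18781 and 14604.5 UMIs. Its columns name only the group, so the lettered samples could not be told apart, each group was 1 library, and the edgeR test planned for separate samples was not run.

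Cells needed at least 300 genes and at most 10% mitochondrial UMIs. Scrublet's automatic threshold marked 0.0221% and 0.0601% of cells and was not used, so the 6% with the highest doublet scores were removed in each library. UMIs were summed per library and stage and divided by the summed UMIs (CPM). A gene was compared where it had at least 5 CPM in the higher library and 50 UMIs in both together, and called past 0.3 on the log2 scale, or 2-fold in both libraries between stages. Clusters (Leiden, resolution 1; 30 components of 2000 variable genes, receptors left out; 15 neighbours) were used without cell type names. Python 3.11.15, scanpy 1.11.5, scipy 1.17.1 and leidenalg 0.10.2 were used, and the scripts were tested on simulated data.

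The receptors, gene lists and marker lists were chosen with earlier results of these data known. Every receptor was named; of each other list the 4 genes with the highest mean CPM and, past the filter, the highest and lowest ratio were named, and for each receptor past the filter the 3 genes with the highest Pearson r over clusters, on log2(CPM + 1), among genes with at least 20 CPM in the higher library. One gene that the rule names is not reported here. Alternatives were other scalings, filters, cell filters, stage thresholds, thinning, doublets kept, the 5 stages weighted equally and a transcript length trend taken out.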

Additional observations from a re-analysis of the deposited data

How the results depend on the processing

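No paired analysis was possible because the cells carry only their group, and for the same reason no replicate could be left out in turn. In all kept cells, 8 of 8 receptors were on the higher side with deoxycholic acid under median-of-ratios size factors, as a mean over cells, with doublet-scored cells kept, with stricter cell filters, without Prss34-gated cells, as a mean over the 5 stages, with a transcript length trend taken out and without the Bnip3-led cluster (chosen after seeing the data). It was 5 of 5 with at least 20 CPM, 9 of 10 with no filter and 6 of 8 after thinning to 5000 UMIs. The number at 0.3 or more was 2, and 1 under size factors, 1 as a mean over cells, 1 after thinning, 1 with the length trend taken out and 0 as a mean over the 5 stages. The cause of these changes was not tested. The median log2 ratio ran from 0.10 to 0.18. Il3ra changed sign after thinning, to -0.10 in all kept cells and -0.13 in the Ngp stage. Within the cell sets, 39 of 45 values were above 0, where 47.9% to 65.3% of all genes were, by set. Among them, Csf1r in the low stage, Csf2rb2 in the Elane and Ngp stage and Kit in the Ngp stage passed the filter only through the deoxycholic acid library. After thinning it was 27 of 38, and with stage thresholds of 5 it was 41 of 45. No share of all genes is given under any alternative, so the counts under alternatives have nothing to be set against. Of 5 receptors called 2-fold higher in the Retnlg than in the Elane stage, 4 were called after thinning, where Csf2rb2 no longer passed the filter on low values. Of the values of single receptors under an alternative, 364 lay inside the counting interval of the reported value, 54 outside it, and the 2 of Il3ra changed sign from an interval above 0. Other changes of sign were in values whose interval held 0. Depth limits Csf1r and Flt3 in all kept cells, and all receptors in the Retnlg stage and the Prss34-gated cells.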

Other observations

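Of 31 further cytokine and growth factor receptor genes, 18 passed the filter, 14 on the higher side with deoxycholic acid (59.5% of all genes) and 4 on the lower, with a median log2 ratio of 0.15 against 0.05 for all genes. Of the 18, 3 reached 0.3 (9.85% of all genes) and 1 reached -0.3 (8.27%). Il1r2, the decoy receptor for interleukin 1, was at 84.0 CPM in the Elane stage and 632 in the Retnlg stage of the media control, and at 92.7 and 637 with deoxycholic acid. Il18rap, a chain of the interleukin 18 receptor, was at 53.3 CPM in the media control and 65.0 with the bile acid in all kept cells (0.29), and its partner chain Il18r1 at 5.03 and 6.40 (0.35, 0.20 to 0.49). Igf1r, the receptor of insulin-like growth factor 1, was at 46.1 and 51.5 CPM (0.16), and Ifnar2, a chain of the type I interferon receptor, at 63.8 and 64.9 (0.03). Tnfrsf1b, a TNF receptor, had the lowest ratio, at 11.6 and 9.07 CPM (-0.35, -0.46 to -0.24), and was lower with deoxycholic acid in each of the 6 cell sets.

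Ligands of the receptors were nearly absent, and 0 of 10 passed the filter. Il3 and Ifng had no UMI. Csf1 was at 3.89 CPM in the media control and 3.45 with the bile acid, Flt3l at 2.67 and 2.998, Il6 at 1.19 and 0.985 and Kitl at 0.0663 and 0.136. The Prss34-gated cells held far more of both Csf1 (195 and 132 CPM) and Il6 (183 and 217 CPM) than any neutrophil stage, where the highest Csf1 level was 15.003 CPM and the highest Il6 level 3.39. Of 10 transcription factors that act with these receptors, 8 passed the filter, with 4 on either side of 0 (59.5% of all genes were on the higher side). Spi1 (PU.1) was at 262 CPM in both libraries and Cebpe, a factor of secondary granule genes, at 302 and 306. Cebpb was lower with deoxycholic acid, at 230.2 and 121 CPM (-0.92, -0.95 to -0.89), and lower in each of the 6 cell sets. Myb was at 75.5 and 66.4 (-0.18). Klf4, a monocyte factor, was at 3.47 and 5.61 CPM (0.69, 0.53 to 0.85).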
